A study of Oryctolagus cuniculus with 30 samples.

Results

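Complex I (NADH:ubiquinone oxidoreductase) is the entry point of electrons from NADH into the mitochondrial respiratory chain. The nuclear genes for its subunits were taken as the 36 entries of the count table, of 31346 genes, whose symbol is NDUFA, NDUFB, NDUFC, NDUFS or NDUFV followed by a number. All 36 symbols were found among the RefSeq gene names for the rabbit. The rule leaves out the assembly factors (NDUFAF genes) and NDUFAB1, and NDUFS6, which the table carries only under a LOC number. NDUFA3 and the subunits encoded in the mitochondrial genome are not analysed here.

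The rabbits were New Zealand whites, 15 in all and 3 in each of 5 groups, and mucosa of their left and right vocal folds was sequenced as separate RNA libraries (30 libraries). Control animals had neither injury nor injection. In the other 4 groups the surface mucosa of both folds was stripped, and 7 days later the folds received 20 µL of type I collagen (Col1), VFLP (man), VFLP (au) or no injection (injury only). Mucosa was dissected 28 days after treatment and frozen. The labels do not spell out VFLP, man or au, and they give no age or sex. Counts of both folds of an animal were summed, so that the animal is the replicate. Levels are CPM, read counts per 1000000 reads on genes scaled by edgeR's TMM method, and are given as mean ± SD over 3 animals.

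The complex has a peripheral arm in the matrix and an arm in the inner membrane. In the peripheral arm the N module oxidises NADH and the Q module passes the electrons along iron-sulfur clusters to ubiquinone. The membrane arm, built around the mitochondrially encoded subunits and named after them (ND1, ND2, ND4 and ND5 modules), pumps protons. The core subunits carry out catalysis, and the accessory subunits surround them. Tissues that work by oxidative metabolism, muscle among them, hold much of the complex. The mucosa of the vocal fold lies directly over the thyroarytenoid muscle, a skeletal muscle.

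The libraries held between 14166322 and 31933788 reads on genes. The fewest reads on any complex I gene were 226 over the 15 animals (NDUFA4L2), and 34 of the 36 genes had a mean above 10 CPM. All 36 passed the filter on low counts. Markers of squamous epithelium, which covers the vocal fold, took 0.741% to 3.71% of the gene reads of every animal. The 25 skeletal muscle markers found were also present. They took 6.43% ± 1.58 of gene reads in control animals, 1.84% ± 0.670 after injury only, 1.25% ± 0.474 after VFLP (au), 0.696% ± 0.308 after Col1 and 0.298% ± 0.234 after VFLP (man). The left fold of control animal 1 had the lowest share of the 6 control libraries, with 1.67% of gene reads on muscle markers against 4.27% to 9.85%. This was not by enough to be an outlier by Dixon's criterion. That criterion takes the libraries as independent, although they are left and right folds of the same animals. The 6 control libraries and 5 of the 6 injury-only libraries belong to the batch labelled C. The right fold of injury-only animal 1 and the 18 libraries of the injected groups belong to batch D.

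The complex I genes were lower after injury in all comparisons with uninjured mucosa. Together the 36 genes took 0.432% ± 0.0727 of gene reads in control animals. They took 0.216% ± 0.0076 after injury only, 0.212% ± 0.0067 after VFLP (au), 0.193% ± 0.016 after Col1 and 0.176% ± 0.0084 after VFLP (man). The lowest control animal (0.355%) lay above the highest injured animal (0.223%, injury only). Every one of the 36 genes had its highest group mean in control animals, and 32 had their lowest mean after VFLP (man). In tissue RNA, fewer cells of a type and less RNA per cell cannot be told apart.

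**Figure D1:**
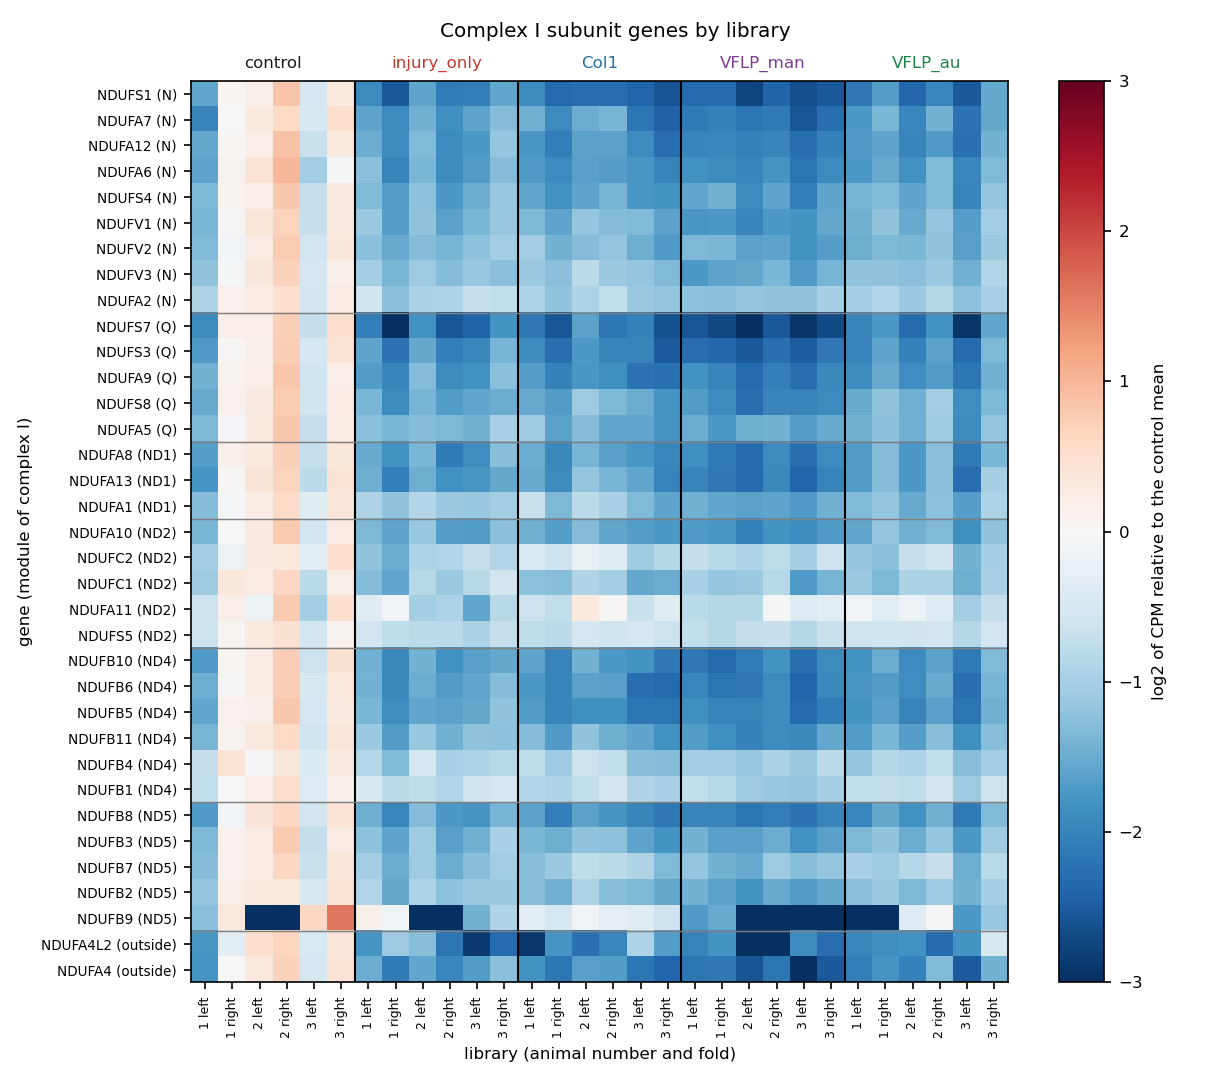
Colour shows the log2 of CPM relative to the control mean (with 0.1 added to both) for 35 of the 36 genes (rows, by module) in the 30 libraries (columns, by group, animal and fold). Libraries of the 4 injured groups are blue for almost all genes, the left fold of control animal 1 is as blue as they are, and NDUFB9 alternates between dark and pale by animal.

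Injury without injection was compared with no injury in a model across all genes that included the batch. The right fold of injury-only animal 1 (batch D) carried no weight in the fold changes of this model. The CPM levels and the counts of animals that do not overlap include that fold. Of the 36 genes, 34 were lower at an adjusted p under 0.05 (edgeR's quasi-likelihood test with Benjamini-Hochberg adjustment) and none were higher. Over all 17815 genes tested, 13.7% were lower and 8.33% higher at this threshold. The median log2 fold change was -1.39 for the 36 genes and 0.02 for all genes tested. Values of the single genes ran from -2.40 for NDUFA4L2 to -0.64 for NDUFB1. All 3 injury-only animals lay below all 3 control animals for 35 of the 36 genes, against 21.9% of 17770 genes. The exception was NDUFB9, described further on.

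The N module holds the site where NADH is oxidised. NDUFS1, its largest subunit and the carrier of several iron-sulfur clusters, stood at 401, 869 and 590 CPM in control animals 1, 2 and 3. It stood at 134, 175 and 179 CPM in the injury-only animals. The lowest control value was more than the highest injury-only value, and NDUFS1 fell by 1.85 ± 0.22 (SE) on the log2 scale, with an adjusted p of 0.00113 (edgeR). NDUFV1, which binds NADH and the flavin cofactor, stood at 143, 311 and 192 CPM in control animals and at 82.9, 81.3 and 89.7 CPM after injury. It fell by 1.26 ± 0.22 on the log2 scale (adjusted p = 0.00299, edgeR). NDUFV2, which carries an iron-sulfur cluster next to the flavin, fell from 263 ± 103 to 107 ± 11.01 CPM (log2 fold change -1.26 ± 0.22, adjusted p = 0.00352, edgeR). The 9 N-module genes of the set all passed the test. NDUFA2, an accessory subunit of this module, had the smallest difference among them, 70.8 ± 19.4 CPM against 38.9 ± 2.87 CPM (log2 fold change -0.76 ± 0.17). NDUFS6, read under its LOC number and not counted among the 36, did not pass (log2 fold change -0.82 ± 0.29, adjusted p = 0.0614, edgeR).

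The Q module holds the site of ubiquinone reduction, and its 6 genes all passed the test, with a median log2 fold change of -1.54. NDUFS7, which binds the last iron-sulfur cluster before ubiquinone, stood at 53.9, 112 and 79.4 CPM in control animals. After injury it stood at 14.6, 18.3 and 19.4 CPM. NDUFS7 was 4.31 times lower, a log2 fold change of -2.11 ± 0.23 (adjusted p = 0.00113, edgeR). This was the most negative value among the genes with a mean above 1 CPM. NDUFS3, a core subunit of the same arm, went from 175, 384 and 281 CPM to 75.9, 81.8 and 89.6 CPM. It fell by 1.67 ± 0.21 on the log2 scale (adjusted p = 0.00134, edgeR). NDUFS8, which carries further iron-sulfur clusters, had a log2 fold change of -1.496 ± 0.23 and passed (adjusted p = 0.00203, edgeR). These core subunits did not overlap between the groups.

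**Figure D2:**
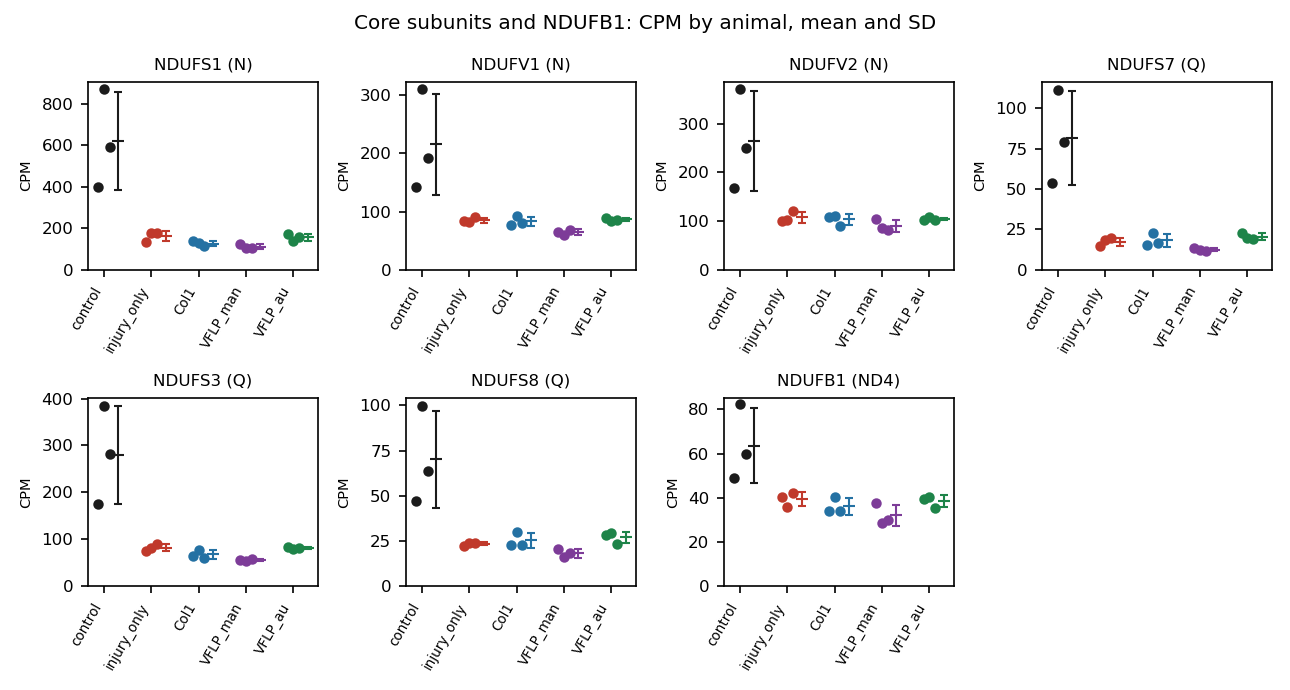
CPM per animal (points, 3 per group) with mean and SD (bars beside them) for 6 core subunits and for NDUFB1, the gene with the smallest difference after injury. Control animals spread widely, from 401 to 869 CPM for NDUFS1, and the lowest of them lies above every injured animal in each panel.

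The membrane arm was lower as well, with a median that ran from -1.59 to -0.97 over its 4 modules. Next to the Q module, the 3 ND1-module genes all passed, with a median log2 fold change of -1.59. Among them, NDUFA8 went from 116, 247 and 160 CPM in control animals to 54.5, 53.5 and 59.8 CPM after injury and fell by 1.59 ± 0.22 on the log2 scale (adjusted p = 0.00172, edgeR). In the ND2 module 4 of 5 genes passed, with a median of -0.97. NDUFS5 of that module fell by 0.73 ± 0.16. NDUFA11, which stabilises the membrane arm and is the other gene there with a small difference, stood at 2.07, 3.06 and 2.20 CPM against 2.04, 1.18 and 1.06 CPM. Its groups did not overlap, but the adjusted p was 0.0935 (edgeR).

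The distal modules were also lower. All 6 ND4-module genes passed, with a median log2 fold change of -1.34, and 4 of 5 ND5-module genes passed, with a median of -1.17. NDUFB1 of the ND4 module had the smallest difference of all 36 genes. It stood at 48.9, 82.4 and 59.6 CPM in control animals and at 40.5, 35.7 and 42.1 CPM after injury, a fall of 0.64 ± 0.18 on the log2 scale (adjusted p = 0.0253, edgeR). NDUFB4 of the same module fell by 0.84 ± 0.14. Whether modules differed was not tested.

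NDUFA4 and NDUFA4L2 carry complex I names but lie outside it by present assignment. NDUFA4 is counted as a subunit of cytochrome c oxidase (complex IV), and NDUFA4L2 is its paralogue, known to be induced at low oxygen. NDUFA4 went from 290, 677 and 471 CPM to 138, 142 and 174 CPM and fell by 1.57 ± 0.27 on the log2 scale (adjusted p = 0.00292, edgeR). NDUFA4L2 was the only one of the 36 genes with a mean under 1 CPM. It stood at 0.496, 1.60 and 1.03 CPM in control animals and at 0.330, 0.259 and 0.0939 CPM after injury, a fall of 2.40 ± 0.71 (adjusted p = 0.0318, edgeR). Low counts lie behind this value.

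**Figure D3:**
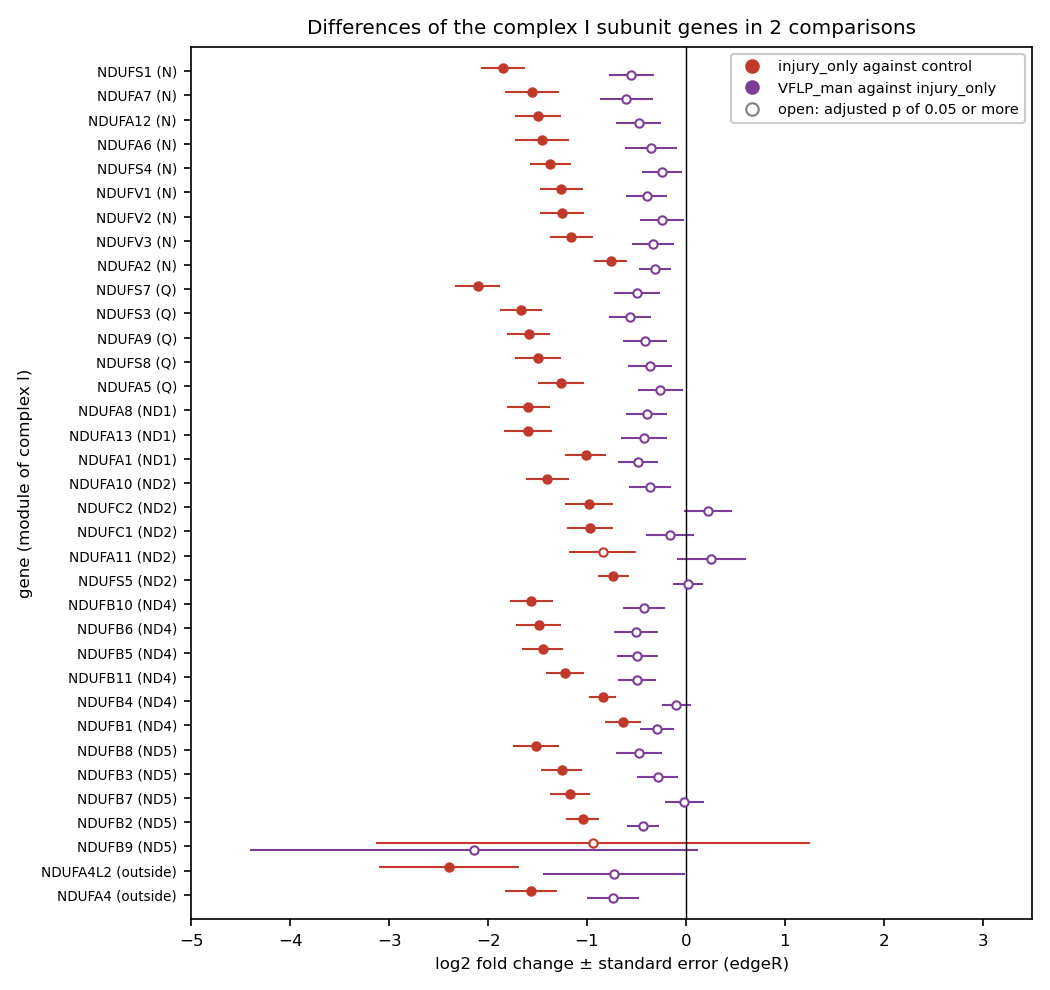
The log2 fold change and its standard error (edgeR) for 35 of the 36 genes, by module, after injury only against control (red) and after VFLP (man) against injury only (purple). Open points have an adjusted p of 0.05 or more. Red points run from -2.40 (NDUFA4L2) to -0.64 (NDUFB1), and all purple points are open.

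The count of genes past the threshold moved with the muscle level and with the fold. With the mean log2 level of the muscle markers as a covariate, all 36 genes were still lower after injury, with a median log2 fold change of -1.14, but 5 passed, against 1.37% of all genes. These were NDUFS7 (-1.86 ± 0.33, adjusted p = 0.0387), NDUFS1, NDUFS3, NDUFA8 and NDUFA9 (edgeR), the last being outside the naming rule and named after its value was seen. With both folds summed, the muscle levels of injury-only animals (7.08 to 8.57) and control animals (9.60 to 10.79) did not overlap. The fit with this covariate thus rests on extrapolation, and in it injury-only animal 1 was divided by batch. With left folds alone the median was -0.93 and none passed, as none did among all 16601 genes tested (0.0%). There, 27 of the 36 genes had an unadjusted p under 0.05, against 22.6% of all genes, and the smallest adjusted p was 0.141 (edgeR). With right folds alone the median was -1.86 and 35 passed, against 15.7% of all genes. This fit had a batch term, so the right fold of injury-only animal 1 (batch D) carried no weight. The fit of left folds had no batch term, so the folds were not compared alike.

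The left fold of control animal 1 was also the lowest control library in its summed complex I share, again not an outlier by Dixon's criterion. Its NDUFS1 level was 209 CPM against 646 CPM in the right fold of the same animal, and its NDUFS7 level 21.7 CPM against 94.2 CPM. All 36 genes were lower in its left fold than in its right, with a median log2 ratio of -1.49. For 34 genes its level lay within the range of the 6 injury-only libraries, and for NDUFA1 and NDUFA7 it lay below them. This uninjured fold held complex I transcripts at the level of injured folds. Without it, 35 genes were lower after injury only, with a median log2 fold change of -1.55 (chosen after seeing the data). Over all genes the share that was lower also went up, from 13.7% to 18.5%. Leaving out control animal 2, whose levels were the highest, gave a median of -1.08.

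Across the 30 libraries the complex I share followed the muscle share. The 5 control libraries with the most muscle reads held 0.357% to 0.554% of gene reads on complex I genes. The right fold of injury-only animal 3 came next, with 3.34% on muscle markers and 0.256% on complex I genes. At the other end, the left folds of VFLP (man) animals 3 and 2 had 0.0100% and 0.0354% on muscle markers and 0.158% and 0.160% on complex I genes. Among the injured libraries with up to 1.99% on muscle markers, the complex I share lay between 0.158% and 0.252%, a narrow band beside the spread of the muscle share.

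**Figure D4:**
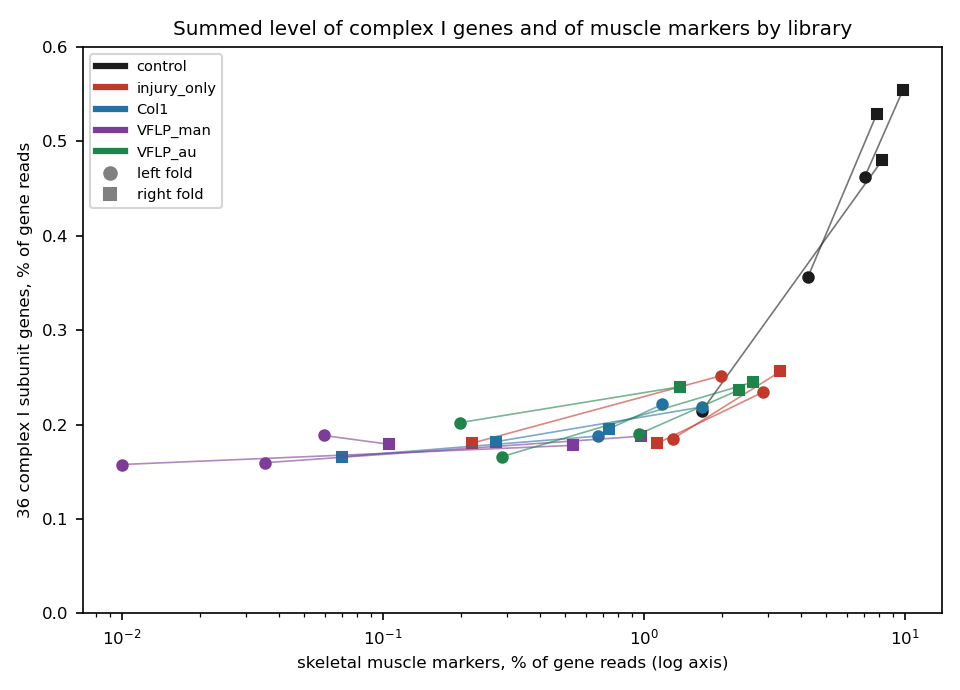
Each point is a library: the share of gene reads on skeletal muscle markers (x, log axis) and on the 36 complex I genes (y), circles for left and squares for right folds, with a line joining the folds of an animal. Control libraries reach 0.554% on the y axis, except the left fold of animal 1 (0.215%), which lies among the injured libraries.

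The same held within animals. In 14 of 15 animals the fold with more muscle reads also had more complex I reads, VFLP (man) animal 1 being the exception. Of the 36 genes, 29 were higher in the fold with more muscle in at least 13 of the 15 animals. Endothelial markers also went with complex I in 14 of 15 animals, fibroblast markers in 11, ciliated epithelium and squamous epithelium markers in 6 each and macrophage markers in 4. The part of these cell types in the complex I differences was not tested beyond the fit with the muscle level. Among marker lists in the comparison of injury only with control, 14 of 25 muscle markers fell, for example CACNA1S, PYGM and TPM2, with a list median of -2.09. Of fibroblast markers 4 of 11 fell (median -0.95), and of endothelial markers 2 of 7 (median -1.10). Pericyte and smooth muscle markers fell in 4 of 10 cases, while 5 of 7 secretory gland and 4 of 5 T and NK cell markers rose. Of 10 ciliated epithelium markers 1 rose (list median 3.60), and of 5 macrophage markers 1 rose and 1 fell. Of 2 adipocyte markers tested 1 fell (median -2.03). None of 9 squamous epithelium and none of 3 cartilage markers passed. Over all genes tested, 13.7% were lower and 8.33% higher.

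Each injected group was also compared with uninjured mucosa, with no batch in the model, since the injected groups and the controls share no batch. After Col1, 33 of the 36 genes were lower (all genes: 18.6%), with a median log2 fold change of -1.53. The smallest p-values belonged to NDUFS1, NDUFS3 and NDUFB5, with log2 fold changes of -2.30 ± 0.24, -2.05 ± 0.22 and -1.95 ± 0.21 (adjusted p = 0.000293 for each, edgeR). NDUFC2 (log2 fold change -0.57 ± 0.25, adjusted p = 0.0976), NDUFA11 and NDUFB9 did not pass. After VFLP (man), 34 were lower (all genes: 20.5%), with a median of -1.85. NDUFS7 was the most changed of those above 1 CPM in every animal, at 13.3, 11.95 and 11.8 CPM, 6.59 times below control. After VFLP (au), 33 were lower (all genes: 16.7%), with a median of -1.41, and NDUFS1 and NDUFS7 fell by 1.99 and 2.00 on the log2 scale. The median over all genes in these 3 comparisons was 0.12, 0.13 and 0.12.

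All 3 injected animals lay below all 3 controls for 33 genes after Col1 (all genes: 23.0%), for 35 after VFLP (man) (24.1%) and for 34 after VFLP (au) (21.9%). With a batch term none of the 36 passed in any of the 3 comparisons, against 0, 29 and 0 of all 17815 genes tested. All 36 were still lower with that term, and the medians were -1.16, -1.43 and -1.08. That term rests on injury-only animal 1, whose batch C fold held 1.99% and whose batch D fold held 0.220% of gene reads on muscle markers. With the muscle level as a covariate none passed either, nor did any of all 17770 genes, and the medians were -1.16, -1.14 and -1.09. The muscle level of every control animal (9.60 to 10.79) lay above that of every injured animal (at most 8.57), so these medians rest on extrapolation. In a test of any difference over the 5 groups 34 genes passed, against 28.4% of all genes. With the muscle level as a covariate none passed that test, as none did among all 17770 genes.

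The injected groups were then set against injury without injection. Here the material, the injection itself and, for most injury-only libraries, the batch differ at once and cannot be told apart. None of the 36 genes passed after Col1 (all genes: 0.0% lower and 0.0% higher), after VFLP (au) (0.0% and 0.0%) or after VFLP (man) (0.99% and 0.0732%). DESeq2 and limma voom also called none of the 36. Of all 17770 genes DESeq2 called 380, 1249 and 201 for Col1, VFLP (man) and VFLP (au), and limma voom called 0 for each. At an unadjusted p under 0.05 edgeR gave 0 of the 36 genes for Col1 (all genes: 14.2%), 9 for VFLP (man) (17.2%) and 0 for VFLP (au) (12.9%). Median log2 fold changes were -0.13, -0.40 and -0.04. With batch in the model they were 0.19, -0.07 and 0.30, so the direction for Col1 and VFLP (au) depended on it. For VFLP (au) it also depended on the fold, with medians of -0.33 for left and 0.26 for right folds alone. Standard errors were between 0.15 and 0.35 for the genes other than NDUFB9 and NDUFA4L2. Differences of that size, and also larger ones, could go undetected with 3 animals a group.

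After VFLP (man) 33 of the 36 genes had a value below 0. NDUFA4 had the smallest p. It stood at 109, 90.9 and 72.1 CPM after VFLP (man) and at 138, 142 and 174 CPM after injury only, a log2 fold change of -0.74 ± 0.26 (adjusted p = 0.184, edgeR). The groups did not overlap. NDUFB2, an accessory subunit of the ND5 module, stood at 31.4, 27.6 and 29.3 CPM against 38.1, 41.5 and 39.6 CPM (-0.43 ± 0.16, adjusted p = 0.195, edgeR). NDUFS3 stood at 56.8, 53.0 and 57.5 CPM against 75.9, 81.8 and 89.6 CPM (-0.56 ± 0.21, adjusted p = 0.204, edgeR). For 25 of the 36 genes all 3 VFLP (man) animals lay below all 3 injury-only animals, against 13.2% of all genes. None of these differences passed the adjusted test. The muscle share moved with them, from 1.10% to 2.40% in the injury-only animals to 0.0801% to 0.546% in the VFLP (man) animals. With the muscle level as a covariate the median was -0.004 and 18 genes were below 0. The muscle level ran from 3.33 to 5.69 in VFLP (man) animals and from 7.08 to 8.57 in injury-only animals. These ranges did not overlap, so that median rests on extrapolation.

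For Col1 the smallest p against injury only belonged to NDUFB5 (-0.42 ± 0.21, adjusted p = 0.373, edgeR), NDUFC2 (0.45 ± 0.25, adjusted p = 0.409) and NDUFS1 (-0.37 ± 0.23, adjusted p = 0.459). All Col1 animals lay below the injury-only animals for 3 genes, NDUFA5, NDUFB5 and NDUFA6 (all genes: 10.8%). For VFLP (au) they belonged to NDUFB7 (0.30 ± 0.20, adjusted p = 0.502, edgeR), NDUFB5 (-0.23 ± 0.21) and NDUFA1 (-0.21 ± 0.21). Here 3 genes, NDUFB5, NDUFB11 and NDUFA1, lay wholly below (all genes: 9.03%) and 3, NDUFA13, NDUFV3 and NDUFB7, wholly above (all genes: 12.8%). NDUFA5, NDUFA6, NDUFB11, NDUFA13 and NDUFV3 were named for this after their values were seen. These counts are near or under the background.

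The materials were also compared with each other, all within batch D. None of the 36 genes passed between any 2 of the 3 materials, or in a test of any difference over the 3 (all genes by edgeR: 0.0%), by edgeR, DESeq2 or limma voom. Of all 17815 genes DESeq2 called 389 for VFLP (man) and 35 for VFLP (au) against Col1. Between VFLP (man) and VFLP (au) it called 387, over the 3 materials 437, and limma voom called 0 throughout. At an unadjusted p under 0.05 edgeR gave 2 of the 36 genes for VFLP (man) against Col1 (all genes: 10.3%), 0 for VFLP (au) against Col1 (4.65%), 8 for VFLP (man) against VFLP (au) (8.36%) and 2 over the 3 materials (9.15%). At the adjusted threshold 0.0% of all genes were lower for the first pair, 0.0% for the second and 0.0505% for the last. VFLP (man) against VFLP (au) had a median log2 fold change of -0.34, and 35 of the 36 genes were below 0. NDUFS7 had the smallest p, at 13.3, 11.95 and 11.8 CPM against 23.0, 19.4 and 19.0 CPM (log2 fold change -0.72 ± 0.22, adjusted p = 0.284, edgeR). It was followed by NDUFA13 (-0.63 ± 0.24) and NDUFS3 (-0.55 ± 0.21). All VFLP (man) animals lay below all VFLP (au) animals for 25 genes, against 9.25% of all genes.

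VFLP (man) against Col1 had a median of -0.22, with the smallest p for NDUFS7 (-0.56 ± 0.22, adjusted p = 0.410, edgeR), NDUFA13 (-0.53 ± 0.24) and NDUFA1 (-0.45 ± 0.21). In 14 genes the VFLP (man) animals lay wholly below the Col1 animals, against 8.29% of all genes. NDUFB9 is among the 14, and its reads are split with another entry, as described further on. VFLP (au) against Col1 had a median of 0.11, with the smallest p for NDUFC2 (-0.41 ± 0.24), NDUFS1 (0.31 ± 0.22) and NDUFS3 (0.27 ± 0.21), all at an adjusted p of 0.995 (edgeR). The direction of the set turned with the fold: left folds alone gave a median of -0.22 with 35 of the 36 genes below 0, and right folds alone 0.40 with 33 above 0. Between VFLP (au) and Col1, 4 genes (NDUFS3, NDUFA9, NDUFB5 and NDUFA6) lay wholly higher after VFLP (au), against 4.81% of all genes. NDUFA9 and NDUFA6 were named here after their values were seen. The muscle share of the VFLP (man) animals (up to 0.546%) was below that of the VFLP (au) animals (0.712% to 1.60%). With the muscle level as a covariate the median of VFLP (man) against VFLP (au) was -0.11, with 23 genes below 0. The muscle levels did not overlap here either (3.33 to 5.69 against 6.31 to 7.73), so this median also rests on extrapolation.

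NDUFB9, an accessory subunit of the ND5 module, behaved unlike the other 35 genes. Its level was 62.7, 0.183 and 179 CPM in control animals 1, 2 and 3, and 81.3, 0.165 and 36.7 CPM after injury only. Values near 0 and high values thus stood side by side within a group, and no comparison passed (injury only against control: log2 fold change -0.94 ± 2.19, adjusted p = 0.792, edgeR). The entry LOC127486440, which RefSeq names NDUFB9 through its gene ID, held many reads where NDUFB9 held few. In control animal 2 it held 251.9 CPM, and in control animals 1 and 3 it held 61.9 and 0.343 CPM.

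The split between the entries was a property of the animal. In 6 animals 99.5% to 99.9% of the reads on both entries lay on NDUFB9, in 5 animals 0.063% to 0.226% did, and in 4 animals 47.5% to 50.3% did. Left and right folds of an animal fell alike. All 3 Col1 animals were of the first kind and none of the VFLP (man) animals was. Every group other than Col1 held animals of at least 2 kinds. Whether the kinds differ between the groups was not tested. With the entries summed, NDUFB9 stood at 125, 252.1 and 180 CPM in control animals and at 81.7, 73.1 and 74.3 CPM after injury only. The sum fell by 1.23 ± 0.20 on the log2 scale (adjusted p = 0.00248, edgeR), a value among those of the other ND5-module genes, and by 1.46 to 1.79 in the injected groups against control. With it in place of NDUFB9, 35 genes passed after injury only (chosen after seeing the data). The cause of the split was not tested.

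**Figure D5:**
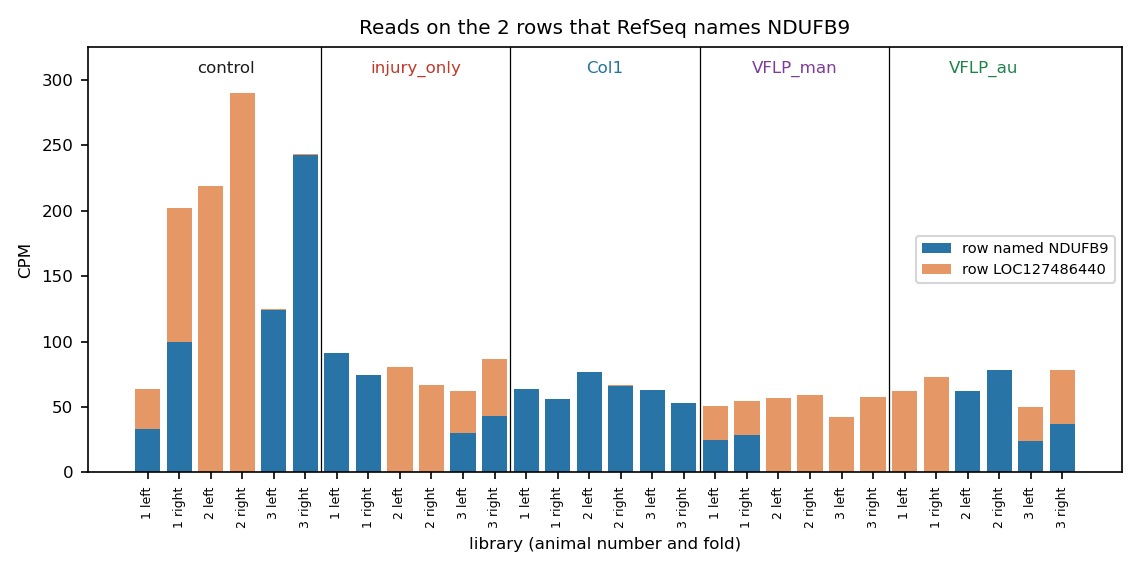
Stacked CPM of the entries NDUFB9 (blue) and LOC127486440 (orange) in each of the 30 libraries, by group, animal and fold. Bars are blue, orange or evenly split by animal and alike in both folds, and the summed bars of 5 control libraries are the tallest, while the left fold of control animal 1 lies among the injured libraries.

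Genes outside the set were followed in the comparison of injury only with control, from lists of the respiratory chain and its regulators. Over all genes tested there, 13.7% were lower and 8.33% higher. Of 18 assembly factors found, 14 fell after injury only and none rose, with a median log2 fold change of -0.85. ECSIT, NDUFAF1 and NDUFAF4, which take part in putting the complex together, had the smallest p-values (-1.45 ± 0.20, -1.23 ± 0.21 and -1.17 ± 0.21). Whether this list differed from the subunits was not tested. Of 38 nuclear subunit genes of complexes II to V, 36 fell and 2 rose, with a median of -1.40. ATP5MC1 of the ATP synthase (-1.93 ± 0.23) and UQCRC2 (-1.75 ± 0.22) and UQCRFS1 (-2.01 ± 0.25) of complex III led by p. COX6A1 and COX8A of complex IV rose, by 0.71 and 0.49 on the log2 scale (named after their values were seen). Of the muscle isoforms of complex IV, COX6A2 fell by 2.80 ± 0.50 and COX7A1 by 2.64 ± 0.47 (adjusted p = 0.0035 and 0.00364, edgeR), and COX8B was not found.

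Other mitochondrial genes fell with them (all genes: 13.7% lower and 8.33% higher). Of 14 genes taken as markers of mitochondrial mass (carriers, outer-membrane channels, import, citrate synthase, cytochrome c, a chaperonin and prohibitins), 10 fell after injury only and none rose (median -0.98), led by the adenine nucleotide carrier SLC25A4 (-2.74 ± 0.32), the main form of muscle, and by the outer-membrane channels VDAC2 (-1.55 ± 0.20) and VDAC1 (-1.47 ± 0.22). Of 12 regulators of mitochondrial gene expression, 5 fell and none rose, with a median of -0.49. TFAM, which packages and transcribes mitochondrial DNA, stood at 38.7, 54.6 and 43.5 CPM in control animals and at 24.2, 23.1 and 24.4 CPM after injury (-0.90 ± 0.15, adjusted p = 0.0029, edgeR). ESRRA, a nuclear receptor that drives oxidative genes, fell by 1.07 ± 0.20. PPARGC1A, the coactivator that partners with it, had a value of -0.71 ± 0.69 (adjusted p = 0.490, edgeR). NRF1 and GABPA, the factors known for binding promoters of respiratory chain genes, had values of 0.01 ± 0.12 and -0.23 ± 0.15 (adjusted p = 0.962 and 0.265, edgeR).

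Of 12 genes of the response to low oxygen, the setting in which NDUFA4L2 is known, 6 fell after injury only and none rose (median -1.05). Over all genes, 13.7% were lower and 8.33% higher. ADM (-2.40 ± 0.33), CA9 (-3.51 ± 0.52) and PDK1 (-1.71 ± 0.30) had the smallest p-values of the 12.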

How the data were processed

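Per the labels, the KAPA mRNA HyperPrep kit was used on 100 ng of intact RNA (integrity number over 7, 15 amplification cycles), followed by paired 100-base reads. The authors deposited raw read counts per gene, made with STAR 2.7.10b per the submitters' processing notes. For the alignment, a genome build is not given in the sources used here, nor an annotation. Of the 3 count columns per library, the one for the strand of read 2 was used, with unstranded counts as an alternative. The 4 entries that name no gene stayed out of library sizes. Reads without a feature or with an ambiguous one were 8.75% to 19.2% of the sum of such reads and reads on genes.

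Genes with a LOC number were named through their gene ID in the RefSeq table (assembly mOryCun1.1); 21 listed genes were matched so. Folds of an animal were summed. edgeR 4.0.16 was run in R 4.3.3 with TMM factors, its filter at a minimum count of 10, and quasi-likelihood tests over all genes, with Benjamini-Hochberg adjustment at 0.05. The standard error is the size of the log2 fold change over the root of the F statistic. Injury only against control and the materials against each other were fitted with batch on 16 units, injury-only animal 1 being divided by batch; its batch D fold then carries no weight. Other comparisons used 15 animals without batch. Alternatives were DESeq2 1.42.0, limma voom 3.58.1, other factors and filters, single folds, batch, a replicate block, the muscle level and animals left out. The main fits were also run on simulated counts for injury only against control and for VFLP (man) against injury only. Those counts had a common spread for all genes and no batch effect, and the outcome is not given here.

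The members and lists were chosen with earlier results of these data known. Named were the core subunits, of which one is not reported here, NDUFA4 and NDUFA4L2, the 5 most and 5 least negative genes after injury, the 3 smallest p-values in each other comparison and per list, PPARGC1A, ESRRA, NRF1, GABPA, TFAM and the muscle isoforms of complex IV. A planned motif search in promoters was not run.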

Additional observations from a re-analysis of the deposited data

Results flagged for a closer look

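The direction of the difference between folds was opposite in some groups. In all 3 Col1 animals the left fold had more reads on complex I genes than the right, with log2 ratios of right over left from -0.27 to -0.18. In all 3 control animals (0.26 to 1.16) and all 3 VFLP (au) animals (0.25 to 0.56) the right fold had more. The mean log2 ratio after Col1 was lower than in control by 0.871 (difference -0.871) and than after VFLP (au) by 0.584 (difference -0.584). Muscle markers did likewise, with right over left lower after Col1 than in control (difference -3.40 on the log2 scale), than after VFLP (au) (difference -4.61) and than after VFLP (man) (difference -5.97). These differences were not tested, and whether the fold matters was not tested either. Among the 6 libraries of each group, no complex I or muscle share was far enough from the rest to stand out by Dixon's criterion in 10 such groups of values. The 6 libraries are left and right folds of 3 animals, so they are not independent values, as that criterion takes them to be.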

How the results depend on the processing

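Counts are of the 36 genes past the threshold. Left folds alone gave 0 for injury only against control, 0 for Col1 against control and 18 over the 5 groups. Of all 16601 genes they gave 0, 18 and 1663. The muscle level as a covariate gave 5 for injury only against control. It gave 0 for Col1, VFLP (man) and VFLP (au) against control and over the 5 groups, as it did among all 17770 genes. Adding batch gave 0 for each of those 3 materials against control, where 0, 29 and 0 of all 17815 genes passed. Right folds alone gave 35 for injury only and 34 for Col1 against control. Of all 16576 genes they gave 4348 and 7762. In the fit of right folds for injury only, the right fold of injury-only animal 1 carried no weight. The batch term rests on 1 animal. The cause was not tested. Only the groups compared gave 25 for injury only against control, where 2064 of all 16812 genes passed. Leaving out each animal gave 30 to 34 there and 32 to 34 for Col1 and VFLP (au) against control. It gave 33 to 34 for VFLP (man) against control and 32 to 34 over the 5 groups. Over all genes those fits called 1733 to 4286 for injury only, 3658 to 6221 for Col1 and 2528 to 5549 for VFLP (au). They called 4438 to 6762 for VFLP (man) and 2924 to 5191 over the 5 groups. DESeq2, limma voom, other size factors, no filter and unstranded counts stayed within 1.5 times the reported counts. The count was 0 between the injured groups under all settings run.

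With mitochondrial locus-tag entries left out of the total, the summed share was 0.5265% in control and 0.2266% after injury only. Without NDUFA4 and NDUFA4L2 it was 0.200% after injury only, 0.1973% after VFLP (au) and 0.1653% after VFLP (man). With batch added the log2 fold change turned sign for NDUFS1 after Col1 (0.262), NDUFB2 after VFLP (man) (0.004) and NDUFB5 after VFLP (au) (0.157), each against injury only. Right folds alone turned it for NDUFB5 (0.017) and NDUFA1 (0.065) after VFLP (au) against injury only. Left folds alone turned it for NDUFS1 (-0.163) and NDUFS3 (-0.226) for VFLP (au) against Col1.

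A replicate block gave 33, 32, 34 and 33 genes for injury only, Col1, VFLP (man) and VFLP (au) against control. Over the 5 groups it gave 33. Of all genes tested it called 3305, 5293, 6190 and 4465 against control, in the same order, and 4291 over the 5 groups. Animals share only a number across groups: of 30 same-numbered pairs 8 had a correlation of deviations over 0.1, with a range from -0.501 to 0.362.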
